A study of Mus musculus with 6 samples.

Results

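The 10 genes described here are Toll-like receptor genes of the mouse, Tlr1, Tlr2, Tlr3, Tlr4, Tlr6, Tlr7, Tlr8, Tlr9 and Tlr13, with Myd88, the adaptor gene that most of the receptors share. Every array probe that carries one of these gene names was taken, which gave 14 probes on 33 spots, out of 55627 probes on 59305 spots for 34755 genes. The series holds 6 arrays, 1 for each combination of 2 genotypes and 3 RNA fractions, from macrophages grown out of bone marrow. AGO2 is the Argonaute protein that holds a miRNA and, through it, the target transcript, and Dicer is the enzyme that cuts miRNA precursors. The comparison of precipitates asks which transcripts were held with AGO2, and the comparison of genotypes asks how this depends on Dicer. RNA was taken after precipitation with an antibody to AGO2 (AGO2-RIP), after precipitation with control IgG (IgG-RIP) and from the lysate before precipitation (input).

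The Dicer KO cells came from LysM-Cre/Dicerflox/flox/Apoe-/- mice and the Dicer WT cells from LysM-Cre/Dicerwt/wt/Apoe-/- mice, aged 6 to 8 weeks and labelled male. LysM-Cre drives Cre recombinase in myeloid cells, and both genotypes carried it on an Apoe-deficient background. Bone marrow cells were grown for 7 days in medium with L929-conditioned supernatant, beads were kept with the lysate for 7 hours, and 500 ng of amplified cDNA went onto each array. No stimulation with a receptor ligand is named in the labels. Equal cDNA mass on each array means that every value is a relative abundance within its fraction, and fewer cells and less RNA per cell cannot be told apart.

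Each group is 1 array, so a difference between 2 arrays has no replicate check and carries no p-value. Values are log2 of the background-subtracted signal relative to the array's 75th percentile, so that 0 is the signal of that percentile. A difference of 1 is 2-fold, which is used here as a size and not as a test. "At least" marks a bound, taken where a probe was not well above background on 1 of the 2 arrays. Between 37.6% and 46.3% of spots were well above background on an array, and the 399 probes printed 10 times had a root mean square SD among spots of 0.15 to 0.188 log2. The spot SD covers hybridisation and scanning only. All 6 arrays shared 1 slide, where each genotype had a row of its own, and row and genotype cannot be told apart. Xist, an RNA of female cells that silences an X chromosome, was well above background on none of the KO arrays and on all 3 WT arrays, against the male label of all mice. Sex thus went with genotype and cannot be told apart from it, which matters for Tlr7, Tlr8 and Tlr13 on the X chromosome. Dicer1 itself read -0.55 in KO input and 0.22 in WT input, and the labels do not say whether its probe lies in the deleted part. Of 8 macrophage markers 7 or 8 were well above background on every array, the exception on the WT AGO2-RIP and WT input arrays being Lyz2, the gene at whose locus LysM-Cre sits. Of 5 neutrophil markers at most 1 was, of 5 B cell markers at most 2, and of 6 dendritic cell markers 2 to 4, with Siglech and Bst2 on every array.

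Toll-like receptors recognise conserved parts of microbes. Tlr1, Tlr2, Tlr4 and Tlr6 act at the cell surface, where Tlr2 pairs with Tlr1 or Tlr6 to bind bacterial lipoproteins and Tlr4 binds lipopolysaccharide. Tlr3, Tlr7, Tlr8, Tlr9 and Tlr13 act in endosomes and recognise nucleic acids. All of these except Tlr3 signal through the adaptor Myd88 to Irak kinases, Traf6 and NF-kB, and Tlr4 can also use Ticam1, the adaptor of Tlr3. Macrophages carry most of the family and answer its ligands with cytokines, and miRNAs act on this signalling in both directions: miR-146a is known as a brake, while miR-155 represses inhibitors such as Socs1 among its targets.

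The probes whose signals the results turn on are printed here 5′ to 3′ as on the array, in full where the run is shown at 60 bases and otherwise as their first 30 bases. Capitals mark AGCT and GTAC, the sites of Alu I and Rsa I, the 2 enzymes that cut the cDNA before labelling, so a cut inside the probed stretch is possible there. Coordinates are those of the array files on mm9, and exon and UTR positions were not determined here. The 3 Tlr7 and 2 Tlr8 probes are shown because probes of the same gene gave different answers, and the others because they carry the differences described below.
Tlr7 probe 1 (chrX:163743146-163743205, minus strand): cataaatgaaggtctgaatttttcctaaca
Tlr7 probe 2 (chrX:163747214-163747273, minus strand): atgtaatgctgcttctgtatcttaaaaact
Tlr7 probe 3 (chrX:163742863-163742922, minus strand): tctctctctctgatactgaactGTACcaga
Tlr8 probe 1 (chrX:163683356-163683415, minus strand): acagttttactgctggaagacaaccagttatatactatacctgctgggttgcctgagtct
Tlr8 probe 2 (chrX:163680628-163680685, minus strand): tgatgggaagtcacgactctgccatcataa
Tlr1 (chr5:65316115-65316174, minus strand): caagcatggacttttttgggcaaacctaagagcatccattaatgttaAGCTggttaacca
Tlr6 (chr5:65344365-65344424, minus strand): ttatgaagttagccttagtcaatgaggatg
Tlr2 (chr3:83640344-83640403, minus strand): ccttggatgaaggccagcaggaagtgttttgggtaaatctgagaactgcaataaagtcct
Tlr9 (chr9:106128979-106129038, plus strand): ctggttcccgagttgctctgcctgccttgc
Myd88 (chr9:119245322-119245381, minus strand): ggtttgcatcttcttattcctttcacgttc
Of the 14 member probes, 4 hold AGCT or GTAC somewhere in their 60 bases, against 34.9% of the 55627 probes of the array. The site of Tlr8 probe 2 lies past its printed bases. The longest run that probes of different members share is 8 bases. Probes were compared with each other only, so binding of a probe to the transcript of a paralog, such as Tlr1 and Tlr6, was not tested.

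Before precipitation, 0 of the 9 members that could be compared differed by 2-fold between KO and WT input, where 4.47% of all genes did. The differences, KO minus WT, ran from -0.32 (Tlr13) to 0.71 (Tlr1), with a median of 0.07 against -0.08 for all genes. Tlr9 was 0.57 and Tlr4 0.40 higher in KO, and Myd88 differed by -0.29, at -0.92 in KO against -0.63 in WT. On the X chromosome, Tlr8 differed by 0.23, Tlr7 by -0.03 and Tlr13 by -0.32, where 533 X-linked genes had a median of -0.12 and 13961 autosomal genes of -0.08. Tlr3, the receptor for double-stranded RNA, was not well above background on any of the 6 arrays, and its values of -4.70 to -4.17 have no order. The receptor genes Tlr5, Tlr11 and Tlr12, which are no members, were likewise not well above background on any array.

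**Figure D1:**
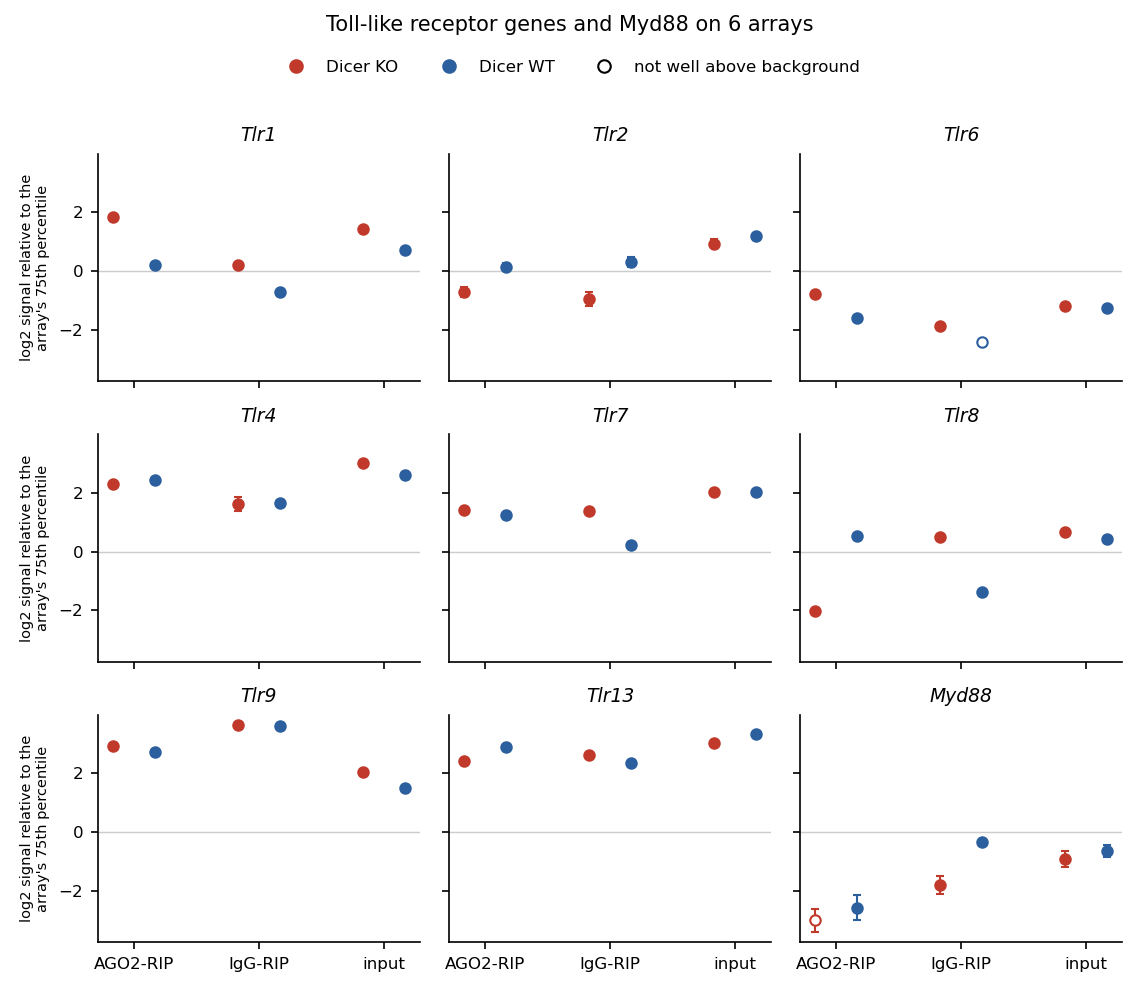
Signal of 9 genes on each array, as log2 relative to the array's 75th percentile, with the 3 fractions on the x axis and Dicer KO left of Dicer WT. Bars are the SD among spots of genes with several spots, open circles are not well above background, and the input values of KO and WT lie within 0.71 of each other for every gene shown.

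Over IgG-RIP, the precipitate of AGO2 held more Tlr1, Tlr6 and Tlr4 and less Tlr9 and Myd88 signal in both genotypes, with 1 array behind each value. These 5 signs were the same under median centring, quantile normalization and normexp background correction, under which Tlr6 in WT came to 0.04. In KO, 3 of 9 members differed by 2-fold, where 24.3% of all genes did, with Tlr1 (1.64) and Tlr6 (1.08) higher and Tlr8 (-2.51) lower. In WT, 3 of 9 members did, against 46.3% of all genes, with Tlr8 (1.90) and Tlr7 (1.04) higher and Myd88 (-2.23) lower. The median of the 8 members measured on both arrays was 0.15 in KO and 0.68 in WT, against -0.19 and -0.24 for all genes in the same genotypes. This difference varied with probe composition. Genes with at most 23 G or C bases in the probe had medians of 0.03 in KO and 0.28 in WT, and genes with at least 33 had -0.34 and -0.60. The probes of Tlr6 (21), Tlr4 (22), Tlr7 (23) and Tlr13 (23) fall in the first group, those of the other members compared do not. Members were not matched to genes by composition. Under the other settings the number of members past 2-fold ran from 2 to 4 in KO and from 0, with normexp, to 5, with median centring, in WT. The share of all genes was not determined under those settings.

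**Figure D2:**
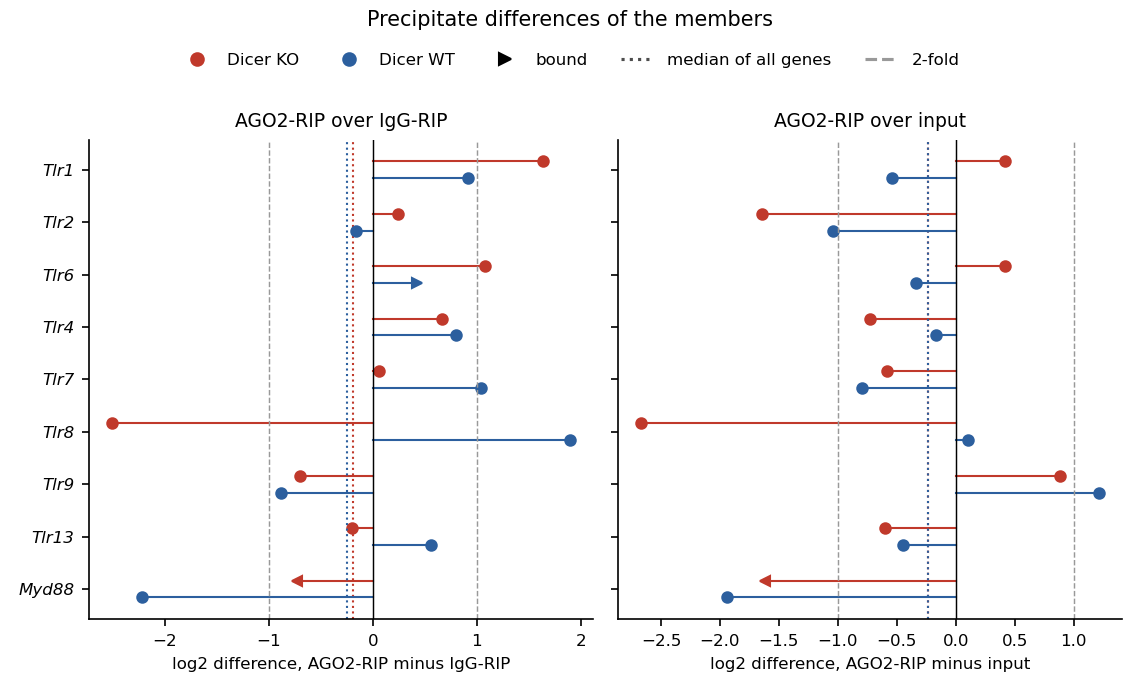
Log2 differences of the AGO2-RIP array from the IgG-RIP array (left) and from the input array (right) for 9 genes, with Dicer KO above Dicer WT in each row. Triangles are bounds, dotted lines the medians of all genes (coinciding on the right at -0.24) and dashed lines 2-fold, and Tlr8 lies at -2.51 in KO and at 1.90 in WT on the left.

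Among the surface receptors, Tlr1 was the member with the highest difference over IgG-RIP in KO. Like Tlr6, Tlr9 and Tlr13, it has 1 probe with 1 spot per array, so no other spot or probe checks its values. Tlr1 pairs with Tlr2 to bind triacylated lipoproteins. It read 1.86 in AGO2-RIP, 0.22 in IgG-RIP and 1.44 in input of KO cells, and 0.20, -0.72 and 0.74 in the same fractions of WT cells. Its AGO2-RIP minus IgG-RIP difference was thus 1.64 in KO and 0.91 in WT, and IgG-RIP was the lowest fraction in both genotypes. Over input the gene stood at 0.42 in KO and -0.54 in WT. On the AGO2-RIP arrays Tlr1 was 1.66 higher in KO, and in the other fractions it was higher in KO too, by 0.93 in IgG-RIP and 0.71 in input.

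Tlr6, which pairs with Tlr2 to bind diacylated lipoproteins, showed the same order of fractions at a dim signal. It read -0.78 in AGO2-RIP, -1.86 in IgG-RIP and -1.20 in input of KO cells. In WT cells it read -1.60 in AGO2-RIP and -1.27 in input, and it was not well above background in IgG-RIP. AGO2-RIP was 1.08 above IgG-RIP in KO and at least 0.43 above it in WT, and over input the differences were 0.42 in KO and -0.34 in WT.

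Tlr2, the partner of both, was low in precipitates relative to input, and its probe was printed 10 times. In KO cells it read -0.71 ± 0.16 in AGO2-RIP (SD over 9 spots), -0.95 ± 0.24 in IgG-RIP (9 spots) and 0.94 ± 0.14 in input (10 spots). In WT cells it read 0.15 ± 0.13 in AGO2-RIP (9 spots), 0.31 ± 0.18 in IgG-RIP (10 spots) and 1.19 ± 0.12 in input (9 spots). The spots are repeats within an array and not replicates of a condition. On the AGO2-RIP arrays the KO spots ran from -0.90 to -0.43 and the WT spots from -0.01 to 0.39, and on the IgG-RIP arrays the KO spots ran from -1.35 to -0.72 and the WT spots from 0.02 to 0.54, with no overlap in either fraction. Of all probes printed 10 times and above background on both arrays, 58.6% of 191 did not overlap between the AGO2-RIP arrays, 44.5% with KO lower, and 57.8% of 161 did not overlap between the IgG-RIP arrays, 21.7% with KO lower. On the input arrays the ranges overlapped, at 0.75 to 1.15 in KO and 1.02 to 1.39 in WT. The AGO2-RIP minus IgG-RIP difference was small in both genotypes, at 0.24 in KO and -0.17 in WT, and the WT value turned positive when arrays were centred on their medians. Over input, the AGO2-RIP differences were -1.64 in KO and -1.04 in WT.

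**Figure D3:**
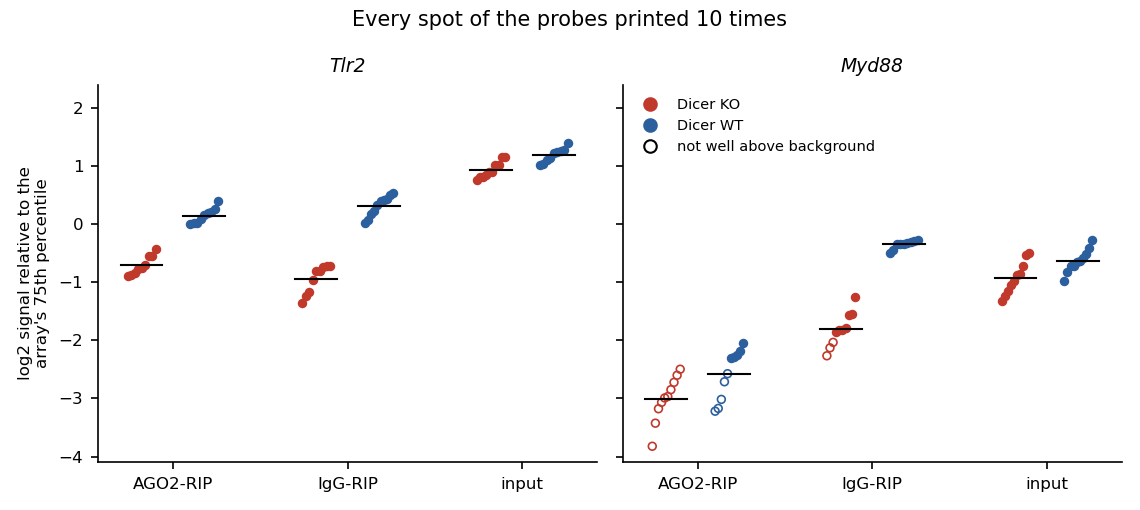
Every spot of the Tlr2 and Myd88 probes that was not an outlier, as log2 signal relative to the array's 75th percentile, sorted from low to high within each array, with Dicer KO left of Dicer WT and black lines for the means. The Tlr2 spots of KO and WT do not overlap in either precipitate, which held for 58.6% (AGO2-RIP) and 57.8% (IgG-RIP) of comparable probes, and the Myd88 spots of KO AGO2-RIP are all open, that is, not well above background.

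Tlr4, the lipopolysaccharide receptor, kept the same order of fractions in both genotypes. It read 2.30 in AGO2-RIP, 1.63 in IgG-RIP and 3.02 in input of KO cells, and 2.46, 1.66 and 2.63 in the same fractions of WT cells, each as the mean of 2 spots. AGO2-RIP lay between IgG-RIP and input in both genotypes. The difference over IgG-RIP was 0.67 in KO and 0.80 in WT, and over input it was -0.73 in KO and -0.17 in WT, where it turned to 0.07 with quantile normalization and 0.01 with normexp. KO minus WT of the difference over input was -0.56, above that of Tlr7, Tlr9 and Tlr13 in size. A second Tlr4 probe, 86607 bases away at chr4:66590077-66590136 and assigned to another transcript, was not well above background on any of the 6 arrays.

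Among the endosomal receptors, Tlr7 and Tlr8 turned on which probe was read. Tlr7 recognises single-stranded RNA. Its probe 1, the brightest, read 1.43 in AGO2-RIP, 1.38 in IgG-RIP and 2.02 in input of KO cells, and 1.25, 0.21 and 2.05 in the same fractions of WT cells. The WT IgG-RIP value stood apart from the other 5, and it set both the AGO2-RIP minus IgG-RIP difference of 1.04 in WT (0.06 in KO) and the KO minus WT difference of 1.17 on the IgG-RIP arrays. Probe 2 lies 4068 bases away and is assigned to another transcript. It read 1.26, 0.50 and 1.03 in AGO2-RIP, IgG-RIP and input of KO cells, and 0.55, 1.52 and 0.58 in WT cells. There WT IgG-RIP was the highest value, and AGO2-RIP minus IgG-RIP was 0.76 in KO and -0.97 in WT. Probe 3, the nearest to probe 1 on the chromosome and assigned to the same transcript, gave -0.16 in KO and 0.15 in WT for the same difference. In input the KO minus WT difference was -0.03, 0.45 and -0.08 for probes 1, 2 and 3.

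Tlr8, the neighbour of Tlr7 on the X chromosome, recognises single-stranded RNA in human cells. Its probe 1 read -2.02 in AGO2-RIP, 0.50 in IgG-RIP and 0.65 in input of KO cells, and 0.53, -1.37 and 0.42 in the same fractions of WT cells. A single array was low in each genotype, AGO2-RIP in KO and IgG-RIP in WT, and the other 4 values lay within 0.23 of each other. AGO2-RIP minus IgG-RIP was -2.51 in KO and 1.90 in WT, so that KO minus WT of this difference was -4.41. Of the 7 members measured on all 4 precipitate arrays only Tlr8 passed 2-fold in KO minus WT, where 36.7% of all genes did, and Tlr7 was next at -0.98.

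Probe 2 of Tlr8, 2728 bases from probe 1 and assigned to another transcript, did not show either low array. It read -0.65 in AGO2-RIP, -0.51 in IgG-RIP and -0.54 in input of KO cells, and -0.39, 0.15 and -0.49 in the same fractions of WT cells. AGO2-RIP minus IgG-RIP was -0.15 in KO and -0.54 in WT with this probe. Each Tlr8 and Tlr7 probe is 1 spot per array, and whether the low values belong to the spot, the labelled stretch or the transcript was not tested. Genes past 2-fold with a second measured probe give a measure of this: the second probe had the opposite sign for 32.3% of 772 such genes in KO and for 21.4% of 1568 in WT.

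**Figure D4:**
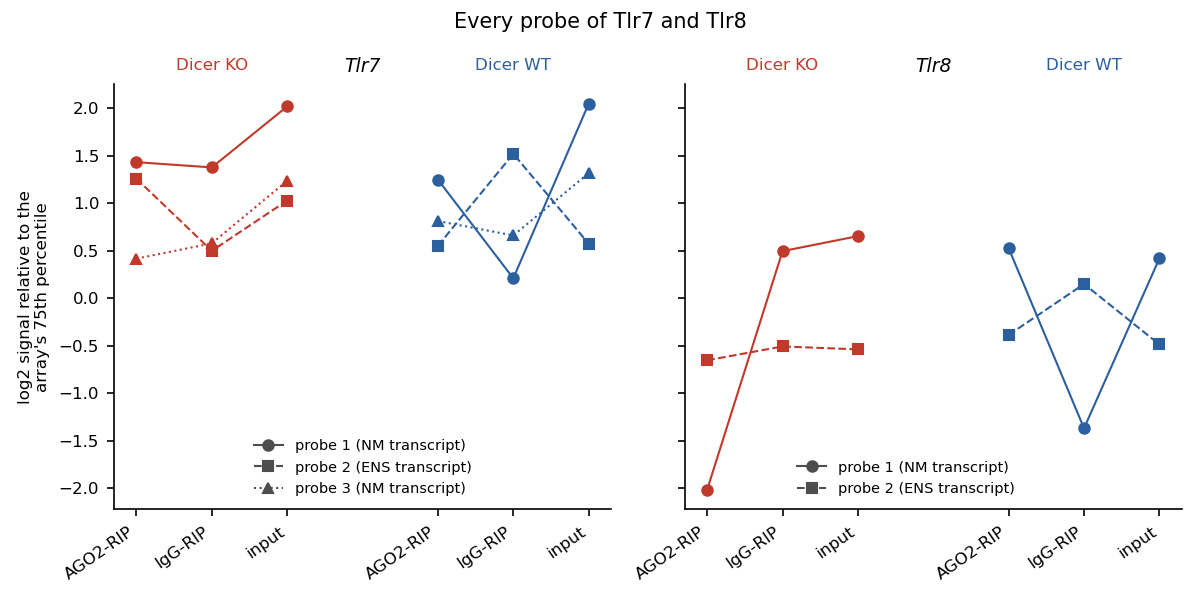
Log2 signal of the 3 Tlr7 probes and the 2 Tlr8 probes relative to the array's 75th percentile, by fraction, with Dicer KO left of Dicer WT and probe numbers as in the printed sequences (NM for a RefSeq and ENS for an Ensembl transcript). The Tlr8 probe 1 values of -2.02 in KO AGO2-RIP and -1.37 in WT IgG-RIP have no counterpart in probe 2.

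Tlr9, the receptor for unmethylated CpG DNA, was the one member that was higher in precipitates than in input in both genotypes. It read 2.95 in AGO2-RIP, 3.65 in IgG-RIP and 2.06 in input of KO cells, and 2.71, 3.60 and 1.50 in the same fractions of WT cells. IgG-RIP was the highest fraction in both, and input the lowest. AGO2-RIP minus IgG-RIP was -0.70 in KO and -0.89 in WT, and AGO2-RIP minus input was 0.88 in KO and 1.22 in WT. The Tlr9 probe has 32 G or C bases in 60, more than any other member probe. Genes whose probes hold 30 to 32 G or C bases had median IgG-RIP minus input differences of -0.02 in KO and -0.12 in WT, against 1.58 and 2.10 for Tlr9. Genes with at most 23 such bases had -0.40 in KO and -0.68 in WT. For AGO2-RIP minus IgG-RIP, genes with 30 to 32 such bases had medians of -0.334 in KO and -0.545 in WT. Their lower quartiles were -0.674 and -1.041, so the Tlr9 values of -0.70 and -0.89 were near those of such probes. The summed level of the 6 dendritic cell markers, on a linear scale relative to the percentile, was 96.8 in AGO2-RIP, 114.2 in IgG-RIP and 72.9 in input of KO cells and 81.3, 128.9 and 79.6 in WT cells. One marker carried most of that sum, at 6.75 in KO IgG-RIP and 6.96 in WT IgG-RIP on the log2 scale, and the median IgG-RIP minus input difference of the 2 markers measured on both arrays was -0.53 in KO and -0.57 in WT, while the sum was higher in IgG-RIP. The part of probe composition and of these markers in the Tlr9 result was not tested.

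Tlr13, the receptor for bacterial ribosomal RNA in mice, read 2.42 in AGO2-RIP, 2.63 in IgG-RIP and 3.03 in input of KO cells, and 2.90, 2.34 and 3.35 in the same fractions of WT cells. Input was the highest fraction in both genotypes, and the order of the precipitates differed between them. AGO2-RIP minus IgG-RIP was -0.20 in KO and 0.56 in WT.

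Myd88 was the member with the lowest AGO2-RIP signal relative to its input in WT, and its probe was printed 10 times. In KO cells 0 of 10 spots were well above background in AGO2-RIP, 7 of 10 were in IgG-RIP with a mean of -1.81 ± 0.30, and 10 of 10 were in input with a mean of -0.92 ± 0.28 (SD over 10 spots each). In WT cells 5 of 10 spots were well above background in AGO2-RIP with a mean of -2.58 ± 0.43 (SD over 10 spots), 9 of 9 were in IgG-RIP with a mean of -0.35 ± 0.07, and 10 of 10 were in input with a mean of -0.63 ± 0.20. The AGO2-RIP arrays were thus the lowest in both genotypes. In WT the highest AGO2-RIP spot, at -2.05, lay below every IgG-RIP spot. In KO the AGO2-RIP spots were all dim, so their order against the IgG-RIP spots is not read. Among comparable probes printed 10 times in WT, 21.4% of 173 had all AGO2-RIP spots below all IgG-RIP spots. AGO2-RIP was lower than IgG-RIP by at least 1.66-fold in KO and by 4.68-fold in WT, and lower than input by at least 3.07-fold in KO and by 3.85-fold in WT. These sizes shrank with normexp, where the log2 difference over IgG-RIP was a bound of -0.44 in KO and -0.87 in WT, and over input a bound of -0.68 in KO and -0.74 in WT. When more than 5 of 10 spots had to be well above background, a rule added after the values were seen, the WT AGO2-RIP value became a bound of the same size.

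Over input, the AGO2 precipitate held less signal of most members, 6 of 9 in KO and 7 of 9 in WT. The median of all genes was below input too, at -0.24 in KO and -0.24 in WT, so a lower signal was not particular to the members. The share of all genes below input was not determined. With arrays centred on their medians Tlr1 and Tlr6 in KO and Tlr8 in WT turned lower too. In KO, 3 of 9 members were past 2-fold, all lower (Tlr8, Tlr2 and Myd88), where 41.5% of all genes were past it either way. In WT, 3 of 9 were, with Tlr9 higher and Myd88 and Tlr2 lower, against 42.2% of all genes. The IgG precipitate showed the same tendency: 4 of 9 members were past 2-fold from input in KO (48.7% of all genes), with Tlr9 higher and Tlr2 (-1.88), Tlr4 (-1.40) and Tlr1 (-1.23) lower. In WT 5 of 9 were (55.3% of all genes), with Tlr9 higher and Tlr7 (-1.84), Tlr8 (-1.79), Tlr1 (-1.45) and Tlr13 (-1.003) lower. With median centring 7 members in KO and 8 in WT were past 2-fold for IgG-RIP over input, and with normexp 3 in KO and 2 in WT. The share of all genes was not determined under these settings. With median centring the median of all genes moved too, by -0.485 in KO and -0.582 in WT. The AGO2-RIP and IgG-RIP differences from input share the input array of their genotype. The member medians over input were -0.59 in KO and -0.45 in WT for AGO2-RIP and -0.66 in KO and -0.99 in WT for IgG-RIP, against -0.24 and -0.24, and -0.26 and -0.45, for all genes in the same order. With arrays centred on their medians in place of the 75th percentile, the medians of all genes moved by -0.50 in KO and -0.28 in WT for AGO2-RIP over input, and by 0.30 for AGO2-RIP over IgG-RIP in WT.

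With both genotypes together, each fraction has 2 arrays, and the contrast of fractions could be tested with limma across 18888 genes, fraction plus genotype. Its error is how far the differences between fractions varied from one genotype to the other. A fraction difference that depends on genotype therefore counts as error here. For AGO2-RIP over IgG-RIP, 0 of 9 members passed an adjusted p of 0.05 after Benjamini-Hochberg adjustment, as did 0.0% of all genes. At an unadjusted p under 0.05 there were 2 members and 3554 genes. The 2 were Myd88 (-1.71 ± 0.46, SE, limma adjusted p = 0.168) and Tlr1 (1.28 ± 0.43, SE, limma adjusted p = 0.222), each with the same direction in both genotypes. For AGO2-RIP over input, 0 of 9 members passed, where 10.2% of genes did. At an unadjusted p under 0.05 there were 6328 of 18888 genes and 3 members. Among these Myd88 stood at -2.02 ± 0.46 (SE, limma adjusted p = 0.054) and Tlr2 at -1.34 ± 0.43 (SE, limma adjusted p = 0.0984). Other settings called 0 or 1 member, with lowest limma adjusted p-values of 0.0375 for Myd88 (median centring), 0.0341 for Tlr2 (filter on all 6 arrays) and 0.0362 for Tlr9 (normexp). In the same order, these settings called 2595 of 18888, 3711 of 12385 and 3640 of 18888 genes.

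For IgG-RIP over input 1 of 9 members passed in limma, where 30.2% of genes did. Tlr9 rose in IgG-RIP over input by 1.84 ± 0.39 (SE, limma adjusted p = 0.0279), with an adjusted p of 0.00614 to 0.0514 under other settings and of 0.0297 to 0.249 when 1 array was left out. Other settings called 1 to 5 members, among them Tlr1, Tlr2, Tlr4, Tlr6 and Tlr7 with lowest limma adjusted p-values of 0.0252, 0.0226, 0.0303, 0.0433 and 0.0401. Of all genes, these settings called from 3291 of 18888 (quantile normalization) to 6859 of 18888 (median centring). The test has 2 residual degrees of freedom before moderation. In simulations of AGO2-RIP over IgG-RIP with the residual spread of these arrays it recovered 0% of 200 genes changed by 1, 2 or 3 on the log2 scale. With an SD of 0.16 per array it recovered 100%. The simulations changed 200 of 18888 genes, a smaller share than passed 2-fold in these data, so their adjusted threshold is not that of the real fit. A miss by a member is therefore not read as the absence of a difference.

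Between the genotypes, more members passed 2-fold in the precipitates than in input, as did more of all genes. On the AGO2-RIP arrays 2 of 8 members were past 2-fold, where 20.0% of all genes were, with Tlr1 (1.66) higher and Tlr8 (-2.54) lower in KO. On the IgG-RIP arrays 4 of 9 were, where 24.9% of all genes were, with Tlr8 (1.87) and Tlr7 (1.17) higher and Myd88 (-1.46) and Tlr2 (-1.25) lower in KO. The Tlr2 spots did not overlap between genotypes on the IgG-RIP arrays, and the Myd88 spots did not either, at -2.27 to -1.25 in KO and -0.49 to -0.27 in WT, where 57.8% of comparable probes printed 10 times did not overlap. Tlr4 and Tlr9 differed by at most 0.23 between genotypes in either precipitate.

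Of 61 other genes that act with the receptors, those of 8 groups chosen with earlier results of these data known, 50 could be compared over IgG-RIP in KO and 51 in WT. In KO 12 were past 2-fold upwards and 8 downwards, where 13.0% and 11.4% of all genes were. In WT 19 were past it upwards and 4 downwards, where 21.6% and 24.7% of all genes were. Their median was 0.00 in KO and 0.60 in WT. In input, 1 was past 2-fold upwards and 1 downwards of 50, KO against WT.

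The co-receptors followed the surface receptors in part. Of 5 that could be compared over IgG-RIP, 2 were at least 2-fold higher and 1 lower in KO, and 3 higher and 1 lower in WT. Of all genes, 13.0% were higher and 11.4% lower in KO, and 21.6% higher and 24.7% lower in WT. Ly96, the protein that holds lipopolysaccharide for Tlr4, was 1.20 above IgG-RIP in KO and 4.34 in WT. The WT value rests on a dim IgG-RIP reading of -1.91, where the dimmest spot above background on that array was -2.03. Over input Ly96 stood at -0.20 in KO and 0.41 in WT. Cd180, a receptor relative on B cells and macrophages, was 1.43 and 1.36 above IgG-RIP in KO and WT. Cd14, which passes lipopolysaccharide to Ly96 and Tlr4, stood at -1.10 in KO and -1.003 in WT. Of the 7 chaperones and proteases that endosomal receptors need, 0 were past 2-fold in KO and 1 in WT, the protease gene Ctsl at 2.27. Unc93b1, which carries the endosomal receptors from the endoplasmic reticulum, was at -0.30 in KO and 0.60 in WT.

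The adaptors went different ways. Tirap, which brings Myd88 to Tlr2 and Tlr4, was higher over IgG-RIP by at least 8.50-fold in KO and by 2.32 on the log2 scale in WT, opposite to Myd88. Ticam1, the adaptor of Tlr3, was at -1.90 in KO and -0.78 in WT. Of the proximal kinases and ubiquitin ligases, 1 was at least 2-fold higher over IgG-RIP and 2 lower of 11 in KO. In WT 7 were higher and 1 lower of 12, and the medians were -0.11 in KO and 1.03 in WT. Of all genes, 13.0% were higher and 11.4% lower in KO, and 21.6% higher and 24.7% lower in WT. Under the other settings 4 to 7 of these kinases and ligases were higher in WT. Over input, 1 was at least 2-fold higher and 5 lower of 12 in KO, and 0 higher and 3 lower of 12 in WT. Of all genes, 3416 were higher over input and 4499 lower of 19067 in KO, and 2851 and 4395 of 17163 in WT. Ube2n and Ube2v1, the ubiquitin-conjugating pair that works with Traf6, stood at -1.25 and -1.66 over IgG-RIP in KO and at 1.66 and 1.76 in WT. On the IgG-RIP arrays Ube2n and Ube2v1 were 1.775 and 2.683 higher in KO. In AGO2-RIP over input both were lower in each genotype, at -2.49 and -2.12 in KO and -1.35 and -1.29 in WT. Irak4, the first kinase that Myd88 recruits, stood at 0.04 over IgG-RIP in KO and 1.67 in WT. Of the kinases and factors of the NF-kB and IRF arms, 1 was higher and 4 lower of 10 in KO, and 1 higher and 1 lower of 9 in WT, with Rela, a subunit of NF-kB, at -1.20 in KO and -1.45 in WT. The 4 lower in KO became 1 with normexp.

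Inhibitors of the pathway stood high over IgG-RIP in both genotypes. Of 9, 5 were at least 2-fold higher and 0 lower in KO, and 4 higher and 0 lower in WT, with medians of 1.18 and 1.38. Of all genes, 13.0% were higher and 11.4% lower in KO, and 21.6% higher and 24.7% lower in WT. Under the other settings 3 to 5 inhibitors were past 2-fold upwards and 0 downwards in either genotype. Dusp1, a phosphatase that turns off MAP kinases, was highest among those measured, at 2.95 in KO and 3.55 in WT. Socs1, an inhibitor of cytokine signalling and a known target of miR-155, was at least 6.15-fold higher in KO and 2.17 higher on the log2 scale in WT. Tnfaip3, an inhibitor of NF-kB signalling, stood at 0.25 in KO and 1.38 in WT. Over input 2 inhibitors were past 2-fold upwards and 2 downwards of 9 in KO, and 3 upwards and 2 downwards of 8 in WT, with medians of -0.09 in KO and -0.28 in WT. Of all genes, 3416 were past it upwards and 4499 downwards of 19067 in KO, and 2851 and 4395 of 17163 in WT. Dusp1 was 3.07 above input in KO and 4.01 in WT, and Socs1 was higher by at least 7.53-fold in KO and 10.2-fold in WT. Of 9 genes that the pathway induces, 4 could be compared over IgG-RIP in KO and 5 in WT. There Tnf (2.44 and 1.99) and Ccl3 (2.22 and 4.05) were past 2-fold upwards in KO and WT. Cxcl2, a neutrophil chemokine, was past it downwards in WT (-1.55) and not well above background on either KO array, and the group's median was 2.22 in KO and -0.18 in WT. No ligand is named in the labels, and Il6, Il12b, Ptgs2 and Ifnb1 could not be compared over IgG-RIP in either genotype.

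**Figure D5:**
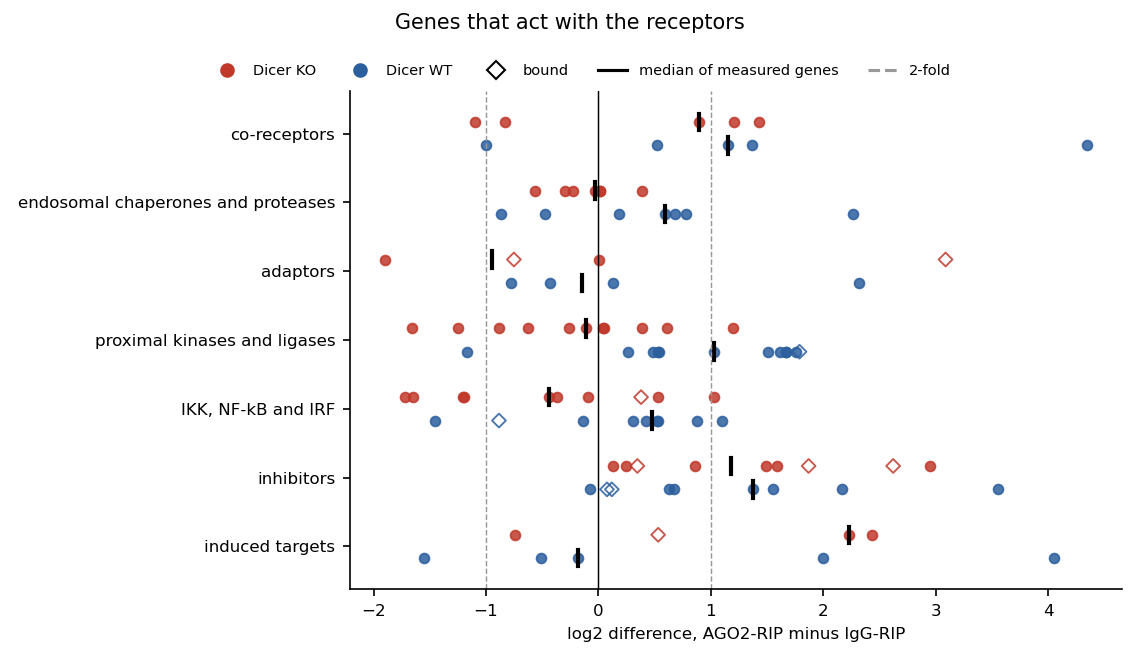
AGO2-RIP minus IgG-RIP log2 differences of genes in 7 groups that act with the receptors, 1 symbol per gene, with Dicer KO above Dicer WT in each row. Black ticks are medians of the measured genes, open diamonds are bounds, and 0 inhibitors lie at or below -1 in either genotype.

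The genes whose profile over the 6 arrays was most like that of a member were found as the smallest root mean square distance after each gene's mean was taken off, among 8563 genes for Tlr2 and Tlr4 and 8564 for Myd88. For Tlr2 they included Nans (0.087) and Rfc5 (0.137), and for Tlr4 they were Zbtb7a (0.099), Armc10 (0.115) and Sema4d (0.132), in log2 units. Nans, for example, read 1.87 in AGO2-RIP, 1.42 in IgG-RIP and 3.54 in input of KO cells, and 2.60, 2.74 and 3.75 in WT cells, with the drop of both KO precipitates that Tlr2 had. For Myd88, which was not well above background on 1 array, the nearest were Nt5c3b (0.252), Tmem199 (0.286) and Opa1 (0.297), further off than those of Tlr2 and Tlr4.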

How the data were processed

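Gene expression was measured on 6 Agilent 1-colour Cy3 arrays. Per the labels' protocols, RNA was reverse-transcribed and pre-amplified, digested with 2 restriction enzymes and labelled from random primers, steps that can weight transcripts unequally. The deposited values are processed signal intensities in linear units from Agilent Feature Extraction 10.7.3.1, per the submitters' processing notes, with background subtracted and flags for spots well above background, per the file headers. They were not normalized between arrays. From them log2 of the intensity minus the array's 75th percentile was computed with Python 3.11.15 and pandas 2.3.3. Spots with outlier flags were dropped, spots of a probe were averaged, and a gene was read by its probe with the highest mean. A probe counted as above background where at least 50% of its spots did. A bound used the dim value itself or, where that was lower, the dimmest spot above background on its array.

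Fractions over both genotypes were tested with limma 3.58.1 in R 4.3.3 (lmFit and eBayes, two-sided, Benjamini-Hochberg, 18888 genes, each above background on 2 arrays or more). The labels do not say whether samples came from separate cultures or animals, so p-values measure the spread between these samples only. Feature Extraction's own error of a member value above background was 0.144 to 0.371 log2. Simulated data were used to test both procedures. The text names all members, Dicer1 and Xist, the 2 highest and 2 lowest measured genes of each group or fewer, and the 3 nearest genes of Tlr2, Tlr4 and Myd88, 1 of which is not reported here. The members, lists, tests and settings were chosen with earlier results of these data known. Symbols were updated through a RefSeq gene table (GRCm38, names only).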

Additional observations from a re-analysis of the deposited data

Results flagged for a closer look

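Tlr8 drew attention because its brightest probe moved in opposite directions in the 2 genotypes under the same contrast. AGO2-RIP minus IgG-RIP was -2.513 in KO and 1.897 in WT, and KO minus WT was -2.544 on the AGO2-RIP arrays and 1.866 on the IgG-RIP arrays. The difference between the genotypes was not tested, since each value is 1 spot on 1 array. The second Tlr8 probe gave -0.15 in KO and -0.54 in WT for AGO2-RIP minus IgG-RIP, and -0.27 and -0.66 for KO minus WT on the AGO2-RIP and IgG-RIP arrays. In input the probes gave KO minus WT differences of 0.23 and -0.05.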

How the results depend on the processing

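Median centring, quantile normalization, normexp, the median of a gene's probes, no filter or a filter on all 6 arrays, and 2 choices added after the data were seen (more than 50% of the spots above background, and the second probe of Tlr7 and Tlr8) were tried. Of 623 recomputed member differences, 477 moved by no more than the spot noise, 146 moved by more, and 29 changed sign, 7 of them past 2-fold in the main setting. The pooled count includes settings with little room to move. The filter on all 6 arrays (0 of 63) and the rule of more than 50% of spots (0 of 80) read the same values, and the second probes alter Tlr7 and Tlr8 only. Normexp moved 37 of 80 by more than the spot noise, median centring 45 of 80 and quantile normalization 25 of 80. In WT the number of members past 2-fold over IgG-RIP, 3 in the main setting, was 0 with normexp, 5 with median centring, 1 with the median of probes and 1 with the second probes. Over input in WT it was 1 with normexp (3 in the main setting), and over input in KO 6 with median centring (3). Between genotypes it was 0 with normexp and 2 with the median of probes on the IgG-RIP arrays (4), and 1 with the second probes on the AGO2-RIP arrays (2). The share of all genes past 2-fold was determined in the main setting only. Counts of members or group genes under other settings thus cannot be told from a shift of all genes. The second probes of Tlr7 and Tlr8 are assigned to other transcripts than the first. With the second probes, Tlr7 turned to -0.969 and Tlr8 to -0.536 for AGO2-RIP minus IgG-RIP in WT, and to 0.946 and 0.637 for IgG-RIP minus input in WT. For KO minus WT on the IgG-RIP arrays they turned to -1.022 and -0.657, where Tlr7 was -0.083 with the median of its probes. The cause was not tested.

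In limma, 0 members passed for AGO2-RIP over IgG-RIP under every setting and with any 1 array left out (0 to 0). Over all genes that contrast gave 0 calls, against 578 with the filter on all 6 arrays, 263 with normexp and 526 without the KO IgG-RIP array. AGO2-RIP over input gave 1934 calls, against 0 with quantile normalization, 1028 with no filter, 3711 with the filter on all 6 arrays and 3640 with normexp, and 0 to 4658 with 1 array left out. IgG-RIP over input gave 5698, against 3291 with quantile normalization and 0 to 7296 with 1 array left out. The genotype term of this fit compares fractions within each genotype, and the labels give no replicate numbers to pair further.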
